A study of Mus musculus with 30 samples.

Results

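Nos2 and Arg1 encode the inducible nitric oxide synthase and arginase 1, enzymes that use the same amino acid, arginine. They were taken by name as 2 of the 248 target genes of an nCounter mouse inflammation panel, a method that tallies barcoded probes bound to RNA molecules with no amplification step. Both had signal above 20, the level treated as background here, in enough samples to be among the 202 genes tested. In the GRCm38.p6 gene table Nos2 lies on chromosome 11 and Arg1 on chromosome 10, and where the panel's probes bind within the transcripts was not analysed here.

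Nos2 turns arginine into nitric oxide and citrulline, and Arg1 turns it into ornithine and urea. In mouse macrophages Nos2 is switched on by bacterial products that act through Toll-like receptors and by interferon gamma, through NF-kB and interferon regulatory factors. Arg1 is raised by interleukin 4 and interleukin 13 through Stat6, and also by interleukin 10, Csf2, Csf3, interleukin 6 and signals that raise cyclic AMP, among them prostaglandin E2 through its receptors Ptger2 and Ptger4. The transcripts are widely used as markers of classical (Nos2) and alternative (Arg1) activation.

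RNA came from peritoneal macrophages of 30 C57BL/6 mice aged 12 to 16 weeks, in 5 groups of 6. Reversa, COX-1>COX-2, COX-2>COX-1 and wild-type mice (WT+LPS) received 2 mg/kg of lipopolysaccharide (LPS), a bacterial wall component sensed by Tlr4, by injection into the peritoneum. Other wild-type mice received the same volume of saline buffer (WT-LPS), and all cells were taken 6 h later. As these lines are generally described, the Ptgs2 locus of COX-1>COX-2 mice expresses COX-1, the product of Ptgs1, the Ptgs1 locus of COX-2>COX-1 mice expresses COX-2, the product of Ptgs2, and Reversa mice combine both exchanges. Ptgs1 and Ptgs2 encode the enzymes that start prostanoid synthesis. No exchange mice received buffer alone, so the effect of LPS within these genotypes was not measured, and each is set against wild-type mice. The labels do not say that the cells were sorted, and in bulk RNA fewer cells of a type and less RNA per cell cannot be told apart.

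The estimated number of molecules counted was between 298381 and 1001557 per sample. Nos2 rested on an estimated 1636 to 12785 counts in the LPS samples and Arg1 on 485 to 9591 counts in all samples, so counting error was small beside the spread between mice. Reversa samples 55 and 56 were almost as alike as repeat counts of 1 RNA would be (chi-square 1.27 per degree of freedom, p = 0.0041, where the second closest of the 75 within-group pairs had 20.91) and were counted as 1 sample, which leaves 5 Reversa samples. Each of the 3 runs held 2 lanes of every group, always in the same lane positions, so lane position and group cannot be told apart. Ptgs2 signal was 88.0 to 487.4 in Reversa, 1.0 to 1.76 in COX-1>COX-2 and 3719 to 7007 in WT+LPS, and Ptgs1 signal was 1.0 to 5.77 in COX-2>COX-1 and 156.5 to 347.2 in WT+LPS. The macrophage markers C1qa, C1qb, Tyrobp and Mrc1 were above background in every sample. Ltb, a marker of B cells, averaged 324.0 in WT+LPS and 4105 in WT-LPS. Reversa mouse 51 stood apart from the others of its group, with a summed signal of the neutrophil markers of 18.2, against 77.8 to 311.9 in the other Reversa samples, and a macrophage marker sum of 16007.5, the lowest of the 29 samples. Its Arg1 signal, taken on the log2 scale, did not pass Dixon's outlier test (gap over range 0.706, critical value 0.71). On the signal scale that gap was a smaller part of the range. Results that rest on it are therefore given without it as well.

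Nos2 was above background only in the LPS groups. Its signal in the 6 WT+LPS mice was 6093, 7901, 5011, 4740, 6847 and 6528 (mean 6187 ± 1181, SD), against 1.39, 10.1, 1.58, 1.43, 5.09 and 10.45 in the 6 WT-LPS mice. Every WT-LPS value was under 20, and the groups did not overlap, as was the case for 45.5% of tested genes that were higher in WT+LPS. With WT-LPS values set to 20, Nos2 was at least 304.6-fold higher in WT+LPS (limma adjusted p = 1.5e-18). Of the tested genes 83.7% passed in this comparison, 49.5% as higher and 34.2% as lower.

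The exchange genotypes had Nos2 in the same range. Reversa mice 51, 52, 53 and 54 had Nos2 signals of 2013, 6216, 2492 and 3210, and the mean of samples 55 and 56 was 8240. The COX-1>COX-2 mice had 5356, 2488, 4536, 4718, 7959 and 2644. The COX-2>COX-1 mice had 5185, 2360, 11918, 4411, 6512 and 5740. The lowest signal after LPS, 2013, was in Reversa mouse 51 and the highest, 11918, in COX-2>COX-1 mouse 53. In all 3 exchange groups every mouse lay above every WT-LPS mouse, as did 38.1% of tested genes in Reversa, 39.6% in COX-1>COX-2 and 42.6% in COX-2>COX-1. The bounds on the difference from WT-LPS were at least 191.5-fold in Reversa, at least 213.2-fold in COX-1>COX-2 and at least 268.6-fold in COX-2>COX-1. Of the tested genes 81.7% passed in the Reversa comparison, 80.2% in that of COX-1>COX-2 and 85.1% in that of COX-2>COX-1.

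Nos2 signal averaged 4434 ± 2683 in Reversa (SD, n = 5), 4617 ± 2008 in COX-1>COX-2 mice, 6021 ± 3218 in COX-2>COX-1 mice, 6187 ± 1181 in WT+LPS and 5.01 ± 4.32 in WT-LPS (n = 6 each). Among the LPS groups this is also the order from the lowest to the highest mean, and none of the neighbours in it differed beyond the spread between mice. The exact permutation p was 0.74 for Reversa against COX-1>COX-2, 0.44 for COX-1>COX-2 against COX-2>COX-1 and 0.60 for COX-2>COX-1 against WT+LPS. The groups at the ends of the LPS range, Reversa and WT+LPS, differed by -0.67 ± 0.45 (SE) on the log2 scale, with a 95% confidence interval of -1.58 to 0.25 (limma adjusted p = 0.39), and by -0.44 (limma adjusted p = 0.67) without mouse 51. Of the 5 Reversa samples, 3 were below every WT+LPS mouse and 1 was above every one. The difference was -0.51 (interval -1.39 to 0.36, limma adjusted p = 0.69) for COX-1>COX-2 against WT+LPS and -0.18 (interval -1.05 to 0.69, limma adjusted p = 0.94) for COX-2>COX-1 against WT+LPS. Together these intervals hold changes from 0.333-fold to 1.62-fold, so they do not show that the genotypes have equal Nos2.

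The range of Nos2 was narrowest in WT+LPS. The highest signal was 4.09 times the lowest in Reversa, 3.20 times in COX-1>COX-2 and 5.05 times in COX-2>COX-1, against 1.67 times in WT+LPS. These ratios describe the 5 or 6 mice of each group and were not tested.

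**Figure D1:**
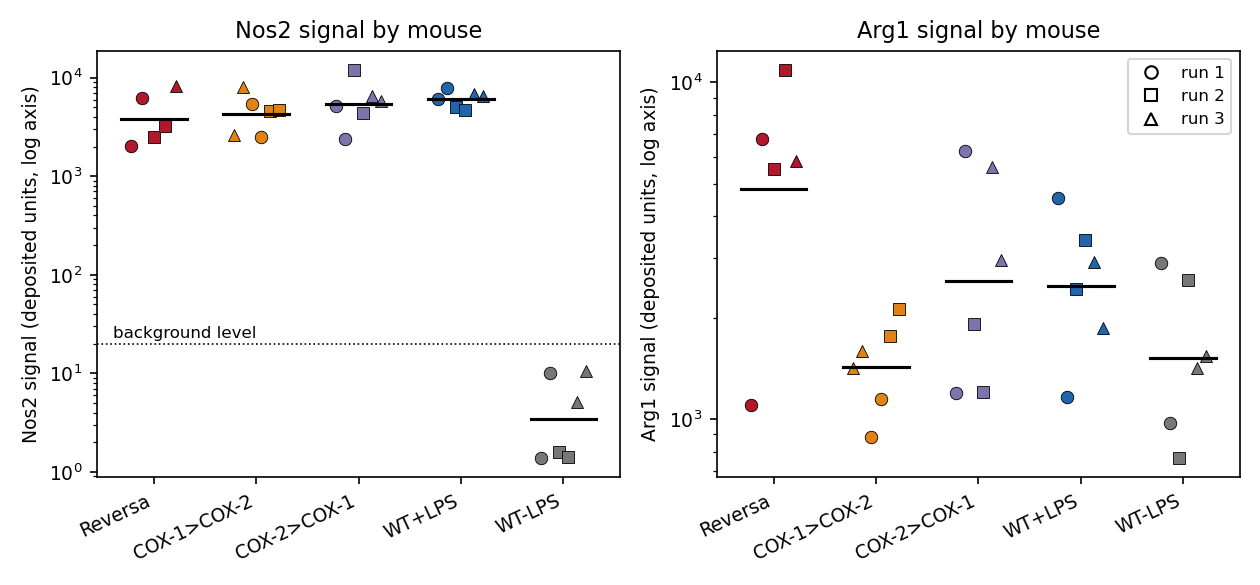
Nos2 signal (left) and Arg1 signal (right) per mouse on log axes in deposited units, for Reversa (n = 5), COX-1>COX-2, COX-2>COX-1, WT+LPS and WT-LPS (n = 6 each). Points are mice, their shapes are the 3 runs, bars are geometric means and the dotted line is the background level of 20. All WT-LPS mice lie under that line for Nos2, and none does for Arg1, where 4 of the 5 Reversa samples lie above all COX-1>COX-2 mice.

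Arg1 was present with and without LPS. Its signal in WT+LPS mice was 4525, 1166, 2428, 3394, 2925 and 1860 (mean 2717 ± 1183, SD, n = 6), against 2915, 973.0, 767.3, 2586, 1420 and 1535 in WT-LPS mice (mean 1699 ± 867.7, SD, n = 6). The groups overlapped, with 3 WT+LPS mice above every WT-LPS mouse. The difference of 0.71 ± 0.48 (SE) on the log2 scale, a 1.64-fold higher mean in WT+LPS, did not pass (limma adjusted p = 0.16, exact permutation p = 0.12), in a comparison in which 83.7% of genes did. All tested genes together had a median change of 0.47 here. Arg1 moved to 1.22 (limma adjusted p = 0.017) when 4 reference genes without Gapdh and Pgk1 set the scale, which shifted the median of all genes by 0.51, and to -0.20 (limma adjusted p = 0.71) when the median of the tested genes was held equal, a shift of -0.91. The direction of Arg1 with LPS in wild-type mice was therefore not settled by these data.

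Arg1 was highest in Reversa. Mice 51 to 54 of this genotype had Arg1 signals of 1100, 6794, 5542 and 10857, and the mean of samples 55 and 56 was 5836. The COX-1>COX-2 mice had 883.6, 1145, 1769, 2120, 1589 and 1416. The COX-2>COX-1 mice had 1197, 6256, 1919, 1199, 5619 and 2958. Reversa thus had 4 samples at or above 5542 and 1, mouse 51, among the low COX-1>COX-2 values, while COX-2>COX-1 split into 2 mice above 5542 and 4 well below it.

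Arg1 signal averaged 6026 ± 3481 in Reversa (SD, n = 5), 1487 ± 442.1 in COX-1>COX-2 mice, 3191 ± 2232 in COX-2>COX-1 mice, 2717 ± 1183 in WT+LPS and 1699 ± 867.7 in WT-LPS (n = 6 each). From high to low the means ran in the order Reversa, COX-2>COX-1, WT+LPS, WT-LPS and COX-1>COX-2, and no neighbours in it differed beyond their spread. The exact permutation p was 0.81 for COX-1>COX-2 against WT-LPS, 0.12 for WT+LPS against WT-LPS, 0.93 for COX-2>COX-1 against WT+LPS and 0.22 for Reversa against COX-2>COX-1. The comparisons share groups, so their values are not independent of each other.

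The ends of the order were farther apart. Arg1 was 3.38-fold higher in Reversa than in COX-1>COX-2, a log2 difference of 1.76 ± 0.50 (SE) with a 95% confidence interval of 1.66-fold to 6.89-fold. In this comparison 4 of the 5 Reversa samples were above every COX-1>COX-2 mouse. The limma adjusted p was 0.061, and the exact permutation p of 0.022 became 0.14 after adjustment over the 10 pairs of groups, so the difference did not pass either test. Only 1.49% of the tested genes passed in this comparison. Without Reversa mouse 51 the log2 difference was 2.29 (limma adjusted p = 0.0019), and without each of the other Reversa samples in turn the adjusted p was between 0.058 and 0.15. Within runs 1, 2 and 3 the log2 difference was 1.44 (limma adjusted p = 0.99), 2.00 (limma adjusted p = 0.063) and 1.96. Run 3 held 1 Reversa sample, and in run 1 mouse 51 lay between the COX-1>COX-2 mice.

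Against wild-type mice, Arg1 in Reversa was 1.94-fold the WT+LPS mean, a log2 difference of 0.96 ± 0.50 (SE, interval -0.07 to 1.99) that did not pass (limma adjusted p = 0.27, exact permutation p = 0.14). Of the 5 Reversa samples, 4 lay above every WT+LPS mouse and mouse 51 lay below every one. Of the tested genes 8.42% passed here, 1.49% as higher and 6.93% as lower. Without mouse 51 the difference was 1.49 (limma adjusted p = 0.056). In COX-1>COX-2 Arg1 was -0.80 ± 0.48 (SE, interval -1.78 to 0.18) from WT+LPS, with 2 of 6 mice below every WT+LPS mouse (limma adjusted p = 0.57, where 0.99% of genes passed, and exact permutation p = 0.041, or 0.14 adjusted over the 10 pairs). In COX-2>COX-1 it was 0.05 (interval -0.93 to 1.03, limma adjusted p = 0.97, where 0.99% of genes passed) from WT+LPS. Reversa against COX-2>COX-1 gave 0.91 (interval -0.12 to 1.94, limma adjusted p = 0.25, where 10.9% passed), and 1.44 (limma adjusted p = 0.035) without mouse 51. COX-1>COX-2 against COX-2>COX-1 gave -0.84 (interval -1.82 to 0.14, limma adjusted p = 0.29, where 5.94% passed).

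**Figure D2:**
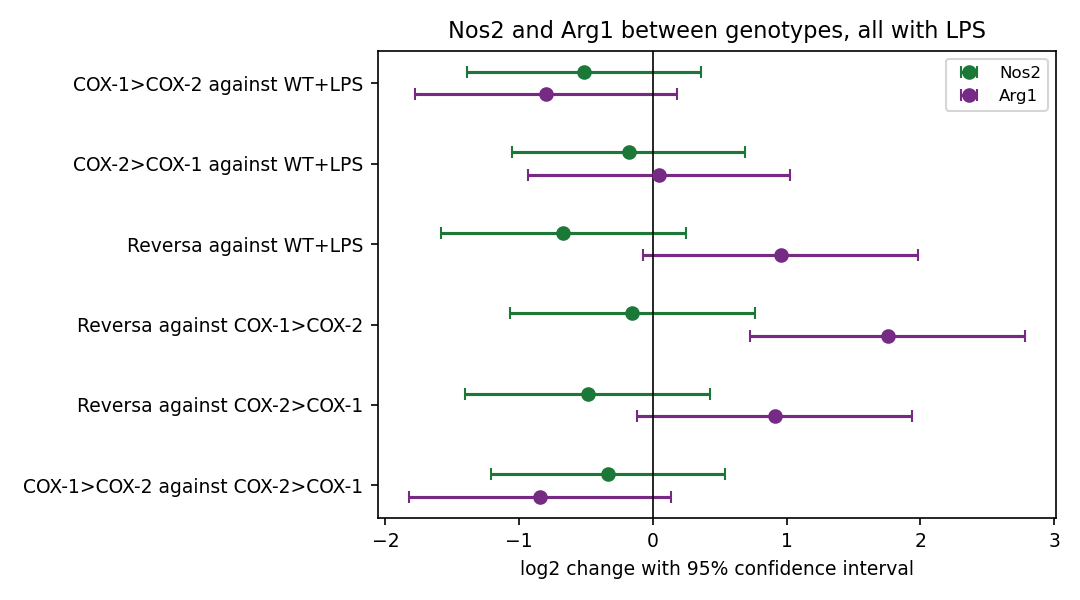
Log2 change of Nos2 (green) and Arg1 (purple) between genotypes after LPS, points with 95% confidence intervals from the limma fit over 29 samples. The interval for Arg1 in Reversa against COX-1>COX-2, 0.73 to 2.78, is the single one that does not hold 0, and its adjusted p was 0.061.

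Set against wild-type mice without LPS, in contrasts added after the data were seen, Arg1 rose 3.18-fold in Reversa, a log2 change of 1.67 ± 0.50 (SE, limma adjusted p = 0.0037, where 81.7% of genes passed, and exact permutation p = 0.035, or 0.14 adjusted over the 10 pairs). The change was 0.85 (limma adjusted p = 0.11) with the median of the tested genes held equal. It was 2.20 (limma adjusted p = 8.1e-05) without mouse 51. The same contrast was -0.09 (limma adjusted p = 0.87) for COX-1>COX-2, which was 0.46 with the 4 reference genes, and 0.76 (limma adjusted p = 0.14) for COX-2>COX-1, which was -0.16 with equal medians. Whether the exchanges add up was tested as an interaction, also added after the data were seen. For Arg1 the Reversa value exceeded the sum of the single exchanges by 1.71 ± 0.69 (SE) on the log2 scale, which did not pass (limma adjusted p = 0.45), and for Nos2 the excess was 0.03 ± 0.62 (limma adjusted p = 0.99).

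The ratio of Nos2 to Arg1 signal within a sample is free of that sample's scaling. Its absolute size compares probes of different transcripts, so only its change between samples is read. The ratio was 1.83, 0.915, 0.4497 and 0.296 in Reversa mice 51, 52, 53 and 54, and 1.41 in the mean of samples 55 and 56. In COX-1>COX-2 it was 6.06, 2.17, 2.56, 2.22, 5.01 and 1.87. All 5 Reversa values were below all 6 COX-1>COX-2 values, with 1.83 and 1.87 as the closest pair.

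The log2 ratio was lower by 1.91 in Reversa than in COX-1>COX-2, a 3.76-fold lower ratio. The exact permutation p was 0.0022, the smallest that 5 against 6 samples allow, and 0.0076 after adjustment over the 7 planned comparisons. Without each sample in turn the log2 difference lay between -2.21 and -1.55, and within runs 1, 2 and 3 it was -1.49, -2.71 and -1.11. The adjusted p without a sample was between 0.017 and 0.028 (exact permutation test). As the groups did not overlap, leaving out a sample could not make them overlap. These p-values were therefore fixed by the number of samples and add no support. The log2 difference over all samples is made up of the Nos2 difference of -0.15 less the Arg1 difference of 1.76.

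In the other LPS groups the ratio was 4.33, 0.377, 6.21, 3.68, 1.16 and 1.94 in COX-2>COX-1 and 1.35, 6.77, 2.06, 1.40, 2.34 and 3.51 in WT+LPS. Against WT+LPS the ratio in Reversa was 3.09-fold lower, a log2 difference of -1.63, with 3 of 5 Reversa samples below every WT+LPS mouse. The exact permutation p of 0.022 became 0.051 after adjustment and did not pass, and it passed without mouse 51 (-1.93, adjusted exact permutation p = 0.044). Reversa against COX-2>COX-1 gave -1.40 (adjusted exact permutation p = 0.21), with a difference of 0.02 in run 1 and -3.71 in run 2. COX-2>COX-1 had the widest ratios of the LPS groups, from 0.377 in mouse 52, which had the lowest Nos2 and the highest Arg1 of its group, to 6.21 in mouse 53, which had the highest Nos2. The ratio did not differ beyond its spread for COX-1>COX-2 against WT+LPS (0.28 on the log2 scale, adjusted exact permutation p = 0.64), COX-2>COX-1 against WT+LPS (-0.23, adjusted exact permutation p = 0.74) or COX-1>COX-2 against COX-2>COX-1 (0.51, adjusted exact permutation p = 0.64). In wild-type mice the ratio was at least 186.0-fold higher with LPS, which follows Nos2, since every WT-LPS value of Nos2 was background.

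**Figure D3:**
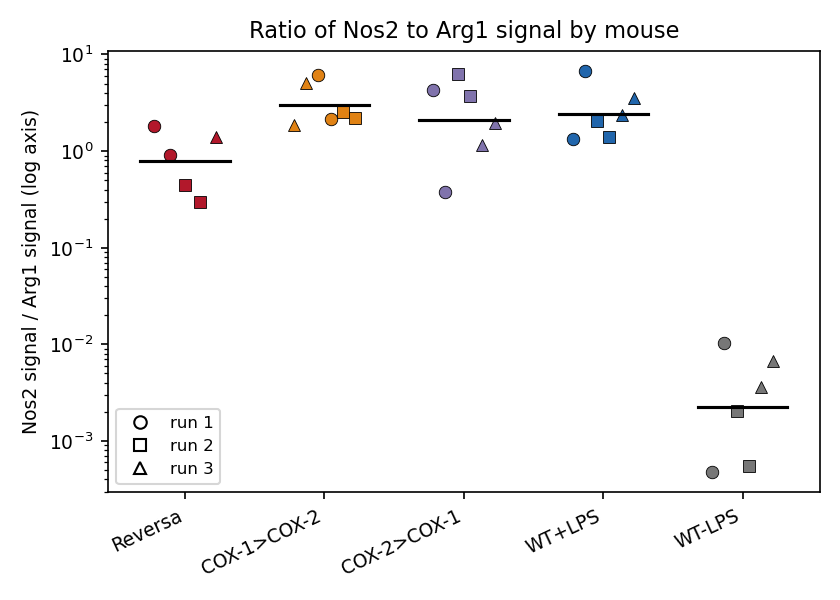
Ratio of Nos2 to Arg1 signal per mouse on a log axis in the 5 groups, with points as mice, point shapes as runs and bars as geometric means. The 5 Reversa samples (0.296 to 1.83) lie below the 6 COX-1>COX-2 mice (1.87 to 6.06), and the WT-LPS values rest on Nos2 signals under background.

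No relation between Nos2 and Arg1 over mice passed a test. Across the 23 LPS samples, as deviations of log2 signal from the group means, Pearson's r was 0.05 (permutation p = 0.84) and Spearman's coefficient was 0.02 (permutation p = 0.94). Without the 2 samples farthest from the median of Nos2, r was 0.30. Within groups of 6 mice, r was 0.19 in COX-1>COX-2 (exact permutation p = 0.71), -0.33 in COX-2>COX-1 (exact permutation p = 0.55) and -0.59 in WT+LPS (exact permutation p = 0.23). Spearman's coefficient was 0.14 in COX-1>COX-2 (exact permutation p = 0.80), -0.09 in COX-2>COX-1 (0.92) and -0.60 in WT+LPS (0.24). After adjustment over the 4 relations every p for r was 0.84 and every p for Spearman's coefficient was 0.94. Without the 2 mice farthest from the median of Nos2, r was -0.17 for the COX-1>COX-2 mice, 0.92 for the COX-2>COX-1 mice and -0.86 in WT+LPS, so the sign rests on those mice in both exchange groups. No r is given over LPS and WT-LPS samples together, which form separate clusters, nor within the 5 Reversa samples.

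**Figure D4:**
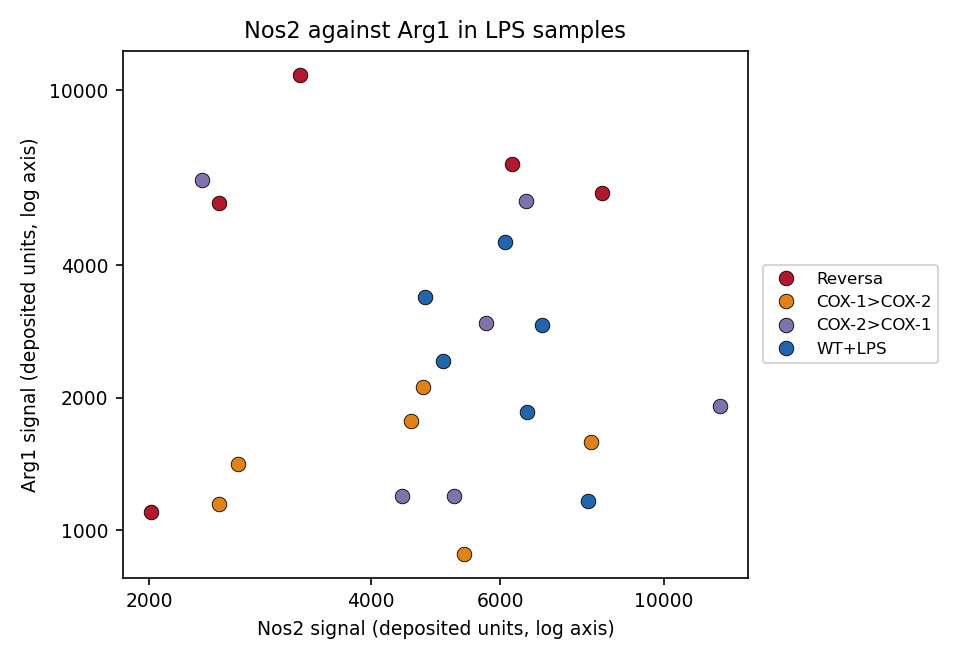
Arg1 signal against Nos2 signal in the 23 LPS samples on log axes, each point 1 sample, coloured by genotype. Reversa samples fill the upper part of the plot apart from mouse 51 at the lower left, COX-1>COX-2 mice lie along the bottom, and r within groups was 0.05.

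Arg1 varied more between mice of a group than most of the panel, with a residual SD of 0.87 on the log2 scale, the 11th largest of the 202 genes, beside a median of 0.42 over all tested genes. For Nos2 the SD within a group was 0.869 in Reversa, 0.637 in COX-1>COX-2 mice, 0.761 among the COX-2>COX-1 mice and 0.279 in WT+LPS, and its SD in WT-LPS describes values under background.

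The genes whose deviations were most like those of Nos2 over the 23 LPS samples were Cxcl9 (r = 0.83), Iigp1 (0.83), C4a (0.79), Ccl5 (0.74) and Cfb (0.73). Cxcl9 and Ccl5 are chemokines that draw T cells, Iigp1 is an interferon-induced GTPase, and C4a and Cfb are complement genes. For Arg1 they were Mmp9 (r = 0.78), a matrix protease, Cxcl5 (0.77) and Cxcl3 (0.75), chemokines that draw neutrophils, Ccl24 (0.77), a chemokine that draws eosinophils, and C3ar1 (0.76), the receptor of complement fragment C3a. These values are descriptions, since the genes were picked as the highest of all tested genes other than Nos2 and Arg1. All points share a sample's scaling, and the same 5 genes need not lead in other mice. Without Reversa mouse 51 the Arg1 values were 0.64 for Mmp9, 0.67 for Cxcl5, 0.60 for Ccl24, 0.66 for C3ar1 and 0.56 for Cxcl3, while those of Nos2 stayed between 0.70 and 0.82. That mouse had an Mmp9 signal of 4.72 and a Cxcl5 signal of 4.72, both under background.

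**Figure D5:**
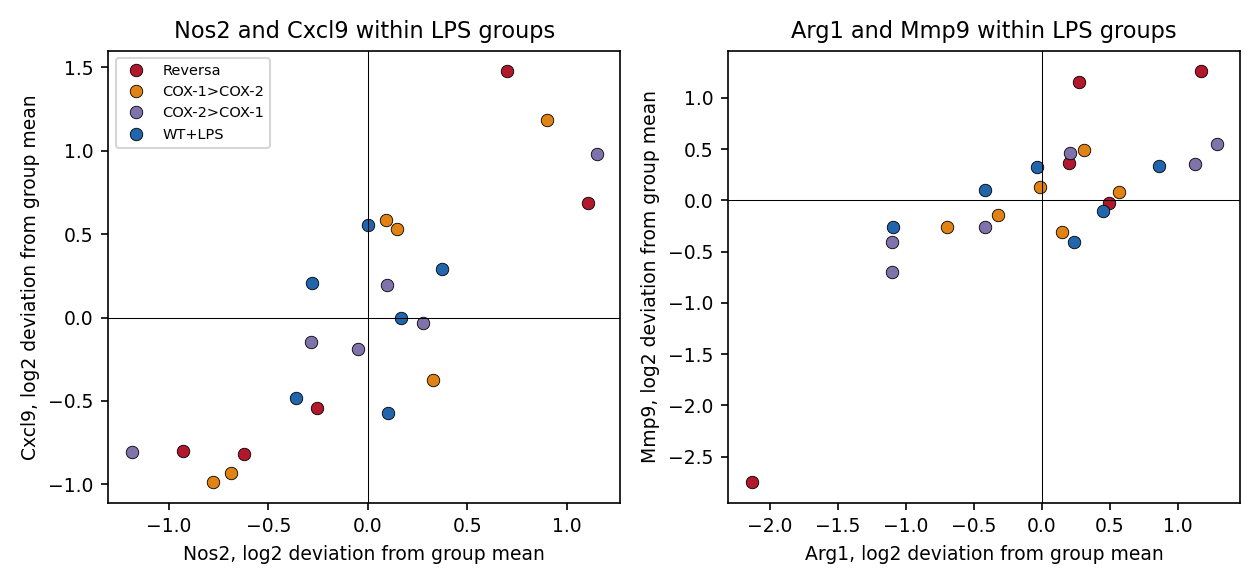
Deviations of log2 signal from the group mean in the 23 LPS samples, Cxcl9 against Nos2 (left, r = 0.83) and Mmp9 against Arg1 (right, r = 0.78), coloured by genotype. The lowest point on the right is Reversa mouse 51, without which r for Mmp9 was 0.64.

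Of 22 listed inducers of Nos2 and their signalling genes, 19 were on the panel and 18 were tested. In WT+LPS against WT-LPS, 13 rose, 3 fell and 2 did not pass, where 49.5% of all tested genes rose and 34.2% fell. The median log2 change was 1.54, beside 0.47 over all tested genes. With genes under background in a group at their bounds, the medians were 1.54 and 0.40. Interferon gamma, Ifng, averaged 704.5 ± 293.4 in WT+LPS and 3.39 ± 5.08 in WT-LPS (SD, n = 6 each), at least 32.9-fold higher (limma adjusted p = 4e-15). Il1b, an inflammatory cytokine, averaged 5232 ± 1610 in WT+LPS and 34.5 ± 17.6 in WT-LPS (limma adjusted p = 3.4e-16). Irf7, a transcription factor of the interferon response, rose 18.7-fold (7600 ± 794.3 in WT+LPS, 424.9 ± 151.6 in WT-LPS), and Hif1a, a factor that binds the Nos2 promoter under low oxygen, rose 6.53-fold. Tlr4, the LPS receptor, fell by 0.52 on the log2 scale (limma adjusted p = 0.034). Scaling by 4 reference genes without Gapdh and Pgk1 shifted the median of all genes by 0.51 in this comparison. Changes of this size, here and in the lists below, therefore depend on the scaling. None of the 18 passed in any of the 6 comparisons between genotypes after LPS, in which only 0.99% to 10.9% of all tested genes passed. Ifng was -0.94 on the log2 scale (limma adjusted p = 0.25) in Reversa against WT+LPS.

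Of 18 listed inducers of Arg1 and their signalling genes, 14 were on the panel and 13 were tested. With LPS in wild-type mice 7 rose and 6 fell, where 49.5% of all tested genes rose and 34.2% fell. Il13, among the 7, was under 20 in all of these mice. The median log2 change of 1.02 became 0.0 with 5 genes at their bounds, beside 0.47 and 0.40 over all tested genes. Csf3, a growth factor of granulocytes, averaged 3476 ± 833.5 in WT+LPS and 1.37 ± 0.247 in WT-LPS, at least 169.3-fold higher (limma adjusted p = 2.4e-25), and Il6 was at least 95.8-fold higher. Ptger2, a receptor of prostaglandin E2, fell to 30.2 ± 7.72 in WT+LPS, against 153.8 ± 21.9 in WT-LPS (limma adjusted p = 1.3e-12), and Il6ra, the receptor of Il6, fell to 574.3 ± 96.0 in WT+LPS, against 1987 ± 300.0 in WT-LPS. The list therefore moved in both directions in the comparison in which Arg1 did not pass. The receptor Il4ra and the factor Stat6 were not measured here.

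Between genotypes, members of that list passed in 4 of the 6 comparisons, 3 of them with Reversa. In Reversa 1 of the 13 passed against WT+LPS, where 8.42% of all tested genes passed. Against COX-1>COX-2 it was 1 of 13, beside 1.49% of all genes, and against COX-2>COX-1 2 of 13, beside 10.9%. These counts are small and lie near the shares of all genes against WT+LPS and COX-2>COX-1. Il6ra rose 1.59-fold in COX-1>COX-2 (685.1 ± 115.3, SD, n = 6) over COX-2>COX-1 (427.3 ± 53.3, n = 6, limma adjusted p = 0.0022), where 5.94% of tested genes passed. Il13, a cytokine of mast cells and type 2 lymphocytes, had signals of 43.4, 76.3, 34.8 and 34.5 in Reversa mice 51 to 54 and 19.3 in the mean of samples 55 and 56, against 1.84 to 18.4 (median 6.69) in WT+LPS. All Reversa samples were above all WT+LPS mice, as were 0.99% of tested genes. The closest values, 19.3 in Reversa and 18.4 in WT+LPS, were both under background, as was every WT+LPS value. The separation at that point is therefore not read. Il13 rose at least 1.90-fold (limma adjusted p = 0.00051, and 0.0027 without mouse 51). It also rose against COX-2>COX-1 (13.98 ± 7.94, SD, n = 6), by at least 1.80-fold (limma adjusted p = 0.022), and against COX-1>COX-2 its log2 difference of 1.09 did not pass (limma adjusted p = 0.14). Csf2, a growth factor of macrophages and granulocytes, rose at least 3.15-fold in Reversa (79.5 ± 43.1, n = 5) over COX-1>COX-2 (16.5 ± 7.32, n = 6, limma adjusted p = 0.0017). The Csf2 difference from WT+LPS, 0.97 on the log2 scale, did not pass with mouse 51 (limma adjusted p = 0.17) and passed without it (1.38, limma adjusted p = 0.03). Creb1, a factor that responds to cyclic AMP, rose 1.71-fold in Reversa over COX-2>COX-1 (limma adjusted p = 0.019). The prostaglandin receptors Ptger2 and Ptger4 were within 0.05 of WT+LPS on the log2 scale in Reversa (limma adjusted p = 0.90 for both).

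All 11 tested markers of classical activation rose with LPS in wild-type mice, with a median log2 change of 4.76, where 49.5% of all tested genes rose. Il12b, among the 11, was under 20 in 4 WT+LPS and 5 WT-LPS mice, so its rise is not read. Cxcl10 averaged 49260 ± 10090 in WT+LPS and 5.47 ± 7.34 in WT-LPS, at least 2424-fold higher, and Ccl5 rose 27.04-fold. In Reversa against WT+LPS none of the 11 rose and 3 fell, where 1.49% of all tested genes rose and 6.93% fell. These were Ptgs2, an exchanged gene, Cxcl9 (770.2 ± 597.7 in Reversa, 2808 ± 832.0 in WT+LPS, limma adjusted p = 0.0091) and Ccl5 (18630 ± 4862 in Reversa, 42110 ± 3926 in WT+LPS, limma adjusted p = 0.00051). Cxcl9 and Ccl5, which were among the genes most like Nos2 within groups, thus fell in Reversa, where the Nos2 difference of -0.67 did not pass. Cxcl9 and Ccl5 were also lower in Reversa than in COX-2>COX-1 (limma adjusted p = 0.029 and 0.00029), the first of which did not pass without mouse 51 (limma adjusted p = 0.056).

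Of the 12 tested markers of alternative activation, 6 rose with LPS in wild-type mice, 3 fell and 3 did not pass, close to the 49.5% of all tested genes that rose and the 34.2% that fell. Il1rn, which blocks the interleukin 1 receptor, was at least 62.6-fold higher, the chemokine Ccl22 rose 40.8-fold and Il10 was at least 10.8-fold higher. Alox15, which resident macrophages of the peritoneum express strongly, fell to 4114 ± 1459 in WT+LPS, against 32860 ± 5507 in WT-LPS (limma adjusted p = 3.3e-09), and Retnla, a secreted protein induced by interleukin 4, fell to 23000 ± 8927 in WT+LPS, against 54250 ± 12430 in WT-LPS. Mrc1 (limma adjusted p = 0.12) and Chi3l3 (limma adjusted p = 0.22), used beside Arg1 as alternative markers, did not pass. In Reversa, where the Arg1 mean was highest, none of the 12 rose over WT+LPS and 1 fell. Of all tested genes 1.49% rose and 6.93% fell in this comparison, so a list of 12 with no rise is near that share. Retnla fell to 10630 ± 4937 in Reversa, against 23000 ± 8927 in WT+LPS (limma adjusted p = 0.018, and 0.067 without mouse 51), Mrc1 was 318.8 ± 141.6 in Reversa against 551.4 ± 203.8 in WT+LPS (limma adjusted p = 0.085), and Chi3l3 ran from 13.3 in mouse 51 to 1674 in samples 55 and 56, against 47.9 to 135.3 in WT+LPS (limma adjusted p = 0.38). On the log2 scale the Chi3l3 difference was 1.41, that of Ccl22 0.95 (limma adjusted p = 0.11) and that of Il10 0.79 (limma adjusted p = 0.37). Myc (0.32) and Tgfb1 (0.23) were also higher in Reversa, and the other members of the list were lower. The median difference of the 12 was -0.27, beside -0.07 over all tested genes. Arg1 and Nos2 were the only members measured here of a list of 10 enzymes and transporters of arginine and nitric oxide metabolism.

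Markers of other cell types differed between groups beside these values. With LPS in wild-type mice, Ccr2, a marker of monocytes, fell 25.5-fold (limma adjusted p = 4e-17) and C3ar1 fell 3.83-fold. Cxcr2, a marker of neutrophils, rose at least 2.23-fold and Cd40lg, a marker of T cells, fell at least 2.97-fold. Of all tested genes 83.7% passed in this comparison. The summed signal of the 9 macrophage markers measured of 10 was 16010 to 39670 in Reversa and 21860 to 52180 in COX-1>COX-2. It was 29880 to 43790 in COX-2>COX-1, 32050 to 58630 in WT+LPS and 104900 to 145300 in WT-LPS. C1qa, C1qb and Trem2 fell in Reversa against WT+LPS, of which Trem2 alone passed without mouse 51 (limma adjusted p = 0.037), and Trem2 was under background in 3 of 5 Reversa samples. Trem2 also fell in Reversa (18.4 ± 11.5) against COX-1>COX-2 (53.8 ± 28.4, limma adjusted p = 0.028, and 0.055 without mouse 51). The summed signal of 3 neutrophil markers of 5 was 18.2 to 311.9 in Reversa, 68.0 to 117.0 in COX-1>COX-2 and 71.3 to 121.2 in WT+LPS. For COX-2>COX-1 this sum was 60.05 to 177.1, the highest in mouse 52. Cxcr1 was under background in every sample. The 4 mast cell and eosinophil markers summed to 62.4 to 299.7 in Reversa, 20.4 to 85.6 in COX-1>COX-2 and 9.92 to 74.6 in WT+LPS. Their sum was 26.3 to 77.9 in COX-2>COX-1, and Il4 and Ccr3 were mostly under background. Il5 of that list rose in Reversa against WT+LPS (72.0 ± 47.5 in Reversa and 15.6 ± 13.8 in WT+LPS, limma adjusted p = 0.016, and 0.056 without mouse 51). The T and NK cell markers summed to 6257.9 in Reversa mouse 51, the highest of its group, and to 7657.3 in COX-2>COX-1 mouse 52. Ccr7 had the highest mean of these markers in every group. Against COX-2>COX-1, Cd4 was lower in Reversa (limma adjusted p = 0.004) and in COX-1>COX-2 (limma adjusted p = 0.028). Flt1, a mesothelial and stromal marker, was higher in both (limma adjusted p = 0.042 and 0.034). C1qa was lower in Reversa than in COX-2>COX-1 (limma adjusted p = 0.042, and 0.11 without mouse 51). In these 2 comparisons 10.9% and 5.94% of tested genes passed. The part of these markers in the Arg1, Nos2 and ratio values was not tested.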

How the data were processed

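The deposited signal per gene and sample was used. No source used here says how the authors made the deposited signal, and its steps were read from the values. Low values lay on whole steps with an offset per lane (100.0% within 0.1 of a step), as background removal leaves them, and the floor was 1. Each sample's gene rows had been multiplied to bring Cltc and Gapdh to a geometric mean of 8147.9. The 2 deposited tables (268 and 266 rows) had equal values in 266 shared rows. Of 240 negative control values 1 passed 20, the background level used.

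These values are not counts, so limma 3.58.1 (R 4.3.3) was fitted to log2(signal + 1) with a mean per group over 29 samples, for the 202 target genes that exceeded a signal of 20 in 6 or more samples. P-values were adjusted by Benjamini-Hochberg at 0.05, and all tests were two-sided. Fold changes on this scale understate low genes. Where most samples of a group were under 20, its values were set to no less than 20 and the fold is a bound. List medians with LPS were also taken with such genes at their bounds. Single genes and ratios were tested by exact permutation, for which the smallest p is 0.0022. The fit was tested on simulated data. Python 3.11.15 with scipy 1.17.1 and pandas 2.3.3 did the rest.

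Groups and replicate numbers came from the labels. The labels describe separate mice. Runs were read from the column names, and run as a block is among the alternatives. The members and the 12 gene lists were chosen with earlier results of these data known. The named genes are Nos2 and Arg1, the 5 most alike to each, up to 4 genes of smallest p per list with LPS and up to 5 that passed per list between genotypes. For the cell type lists and for Ptgs2 not all of these values are given. Tlr4, Retnla, Mrc1, Chi3l3, Ptger4, Myc, Tgfb1, Ccr7 and failing values of named genes were added after their values were seen. The contrasts of exchange groups with WT-LPS, the interaction, the replicate block with Reversa 55 and 56 apart and the gene lists without Reversa 51 were also added after the data were seen. Alternatives were 4 scalings, other filters, only the groups compared, a pseudocount of 10, run by run fits, each sample left out and a prior that follows the mean. Promoter and protein sequences of the genes were not used here.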

Additional observations from a re-analysis of the deposited data

How the results depend on the processing

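Between genotypes few genes passed, Arg1 sits near the threshold in Reversa, and 5 or 6 mice a group limit precision. Under run 3 alone a single Reversa sample is assumed to vary like the others. Nos2 with LPS in wild-type mice kept its direction and passed under all 13 other settings it was run in (8.72 to 10.93 on the log2 scale) and without each sample (10.12 to 10.58). These fitted values, and those of the ratio in the same comparison, rest on WT-LPS values under background, so their sizes are not read. Signal above 20 in every sample left Nos2 out. The causes of the changes below were not tested.

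Arg1 in WT+LPS against WT-LPS was 1.22 with 4 reference genes and -0.20 with equal medians. Arg1 in Reversa against COX-1>COX-2 passed with equal total signal (1.77, adjusted p = 0.035), 4 reference genes (1.78, 0.039), pseudocount 10 (1.75, 0.035), Reversa 55 and 56 apart (1.80, 0.030) and without Reversa mouse 51 (2.29, 0.0019). It failed in the other 10 settings (0.15 with only the groups compared). Arg1 in COX-2>COX-1 against WT+LPS was -0.04 with equal total signal, -0.06 with all 6 reference genes and -0.92 in run 2. In single runs, Nos2 was 0.57 in run 2 for COX-2>COX-1 and 0.30 in run 3 for Reversa, both against WT+LPS. Reversa against COX-1>COX-2 gave 0.84 in run 3 and 0.03 with samples 55 and 56 apart for Nos2. Reversa against COX-2>COX-1 gave 0.02 in run 1 and 0.43 in run 3 for Nos2, and -0.0015 in run 1 for Arg1. COX-1>COX-2 against COX-2>COX-1 gave 0.06 in run 1 for Nos2 and 0.35 in run 2 for Arg1. Arg1 in COX-1>COX-2 against WT-LPS was 0.46 with 4 reference genes and in run 2 and 0.02 in run 3, and COX-2>COX-1 against WT-LPS gave -0.16 with equal medians and passed with 4 reference genes (1.27, adjusted p = 0.012) and in run 3 (1.46, 0.0094). Arg1 in Reversa against WT-LPS did not pass with equal medians (0.85, 0.11) or in run 1 (0.70, 0.64).

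The log2 ratio was -1.24 in run 1 and 1.49 in run 2 for COX-2>COX-1 against WT+LPS, -2.71 in run 2 and -1.11 in run 3 for Reversa against COX-1>COX-2, 0.02 in run 1 and -3.71 in run 2 for Reversa against COX-2>COX-1, and -1.0 in run 2 for COX-1>COX-2 against COX-2>COX-1. The correlation over LPS samples was -0.01 with equal total signal and -0.23 without the Reversa group.

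Leaving out 1 sample at a time gave Arg1 0.51 to 0.93 for WT+LPS against WT-LPS, -1.02 to -0.63 for COX-1>COX-2 against WT+LPS, -0.21 to 0.27 for COX-2>COX-1 against WT+LPS, 0.66 to 1.49 for Reversa against WT+LPS, 1.46 to 2.29 for Reversa against COX-1>COX-2, 0.62 to 1.44 for Reversa against COX-2>COX-1 and -1.06 to -0.59 for COX-1>COX-2 against COX-2>COX-1. In the same order from the second on, Nos2 gave -0.70 to -0.36, -0.41 to 0.06, -0.95 to -0.44, -0.43 to 0.08 (the lowest without samples 55 and 56, and -0.33 the next), -0.76 to -0.26 and -0.57 to -0.10. Arg1 in COX-1>COX-2 against WT-LPS gave -0.28 to 0.1. The log2 ratio gave 9.22 to 9.98, 0.08 to 0.58, -0.54 to 0.27, -1.93 to -1.27, -2.21 to -1.55, -1.89 to -1.04 and 0.02 to 0.82, in the order of Arg1.

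Over all settings and samples left out, the number of genes that passed was 111 to 179 for WT+LPS against WT-LPS, 1 to 5 for COX-1>COX-2 against WT+LPS, 1 to 4 for COX-2>COX-1 against WT+LPS, 5 to 23 for Reversa against WT+LPS, 0 to 20 for Reversa against COX-1>COX-2, 4 to 29 for Reversa against COX-2>COX-1 and 2 to 26 for COX-1>COX-2 against COX-2>COX-1.

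WT+LPS, COX-2>COX-1 and Reversa share replicate numbers, but deviations of same-numbered samples correlated between -0.35 and 0.21, so the numbers do not pair the mice. With the replicate number as a block and Reversa 55 and 56 apart, Arg1 was 0.05 for COX-2>COX-1 against WT+LPS, 1.0 for Reversa against WT+LPS and 0.96 for Reversa against COX-2>COX-1, and Nos2 was -0.18, -0.49 and -0.30, with no call changed and 12 genes passing in the last comparison. No other comparison could be paired, as COX-1>COX-2 and WT-LPS share fewer than 2 numbers with the groups they are set against.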
